A study of Mus musculus with 3 samples.

Results

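The genes described are the 10 prostaglandin synthases and prostaglandin receptors Ptgs1, Ptgs2, Ptges, Ptgis, Ptgds, Ptgir, Ptger1, Ptger2, Ptger3 and Ptger4, taken by the gene name printed in the array files. They are read by 15 of the 41156 probes analysed, and they are 10 of the 28471 genes named there. Every probe of each gene is described, because the probes of Ptgir and of Ptger3 do not give the same picture.

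The samples are 3 stromal populations of the mesenteric lymph node, the node that drains the gut, sorted from wild-type C57BL/6NCrl mice by the surface proteins gp38 and CD31, after removal of CD45-bearing cells and selection for cells lacking CD24. They were lymphatic endothelial cells (LEC, gp38+ CD31+), blood endothelial cells (BEC, gp38- CD31+) and fibroblastic reticular cells (FRC, gp38+ CD31-), the fibroblasts that build the scaffold of the node. No group was treated, and the labels give neither the age nor the number of the mice, nor the number of sorts pooled into an RNA. All 3 populations came from tissue digested with collagenase at 1 mg/ml for 30 min, and the part of this digestion in the levels was not tested. The labels state a mean purity of 88% ± 1.5 over the subsets without naming the kind of error, and an input of 30 to 50 ng of total RNA per labelling. Each population had 1 single-colour array and all 3 arrays lay on 1 slide, so no value below has a replicate, no test was possible, and a difference is that between these 3 RNAs.

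Prostaglandins are short-lived lipid signals made from arachidonic acid. The cyclooxygenases, encoded by Ptgs1 and Ptgs2, turn arachidonic acid into the unstable intermediate PGH2, which terminal synthases convert into prostaglandin E2, prostacyclin or prostaglandin D2, and each product acts through its own G protein-coupled receptors. In lymphoid tissue, prostaglandin E2 is known for its effects on T cells and dendritic cells, and prostacyclin from the vessel wall is known for relaxing vessels and restraining platelets.

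Levels are given as the log2 of the background-subtracted signal minus the log2 of the 75th percentile of its array, which was 268 intensity units for LEC, 361 for BEC and 387 for FRC. A level compares 1 probe across arrays and not 2 probes with each other. A gene is called higher or lower where the arrays differ by at least 4-fold, and its brightest probe stands for it. Of the 41156 probes, 59.7% were well above background on the LEC array, 60.1% on the BEC array and 60.5% on the FRC array, and none of the spots reached saturation. The file headers give a slope of signal on the dose of the spike-in controls of 1.00 for LEC, 0.92 for BEC and 0.82 for FRC, the last outside the range the scanner software accepts. The detection limit from the spike-ins was 1.42 for LEC, 1.52 for BEC and 3.09 for FRC on a log10 scale, the last again outside its accepted range, and the net signal of negative controls was 41.9 for LEC and 40.9 for BEC, both outside theirs, and 39.6 for FRC, inside it.

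The labels were checked against markers. Of 9 shared endothelial markers, 8 were higher in LEC and 8 were higher in BEC than in FRC, and Pecam1, which encodes CD31, stood at 2.33 in LEC, 4.02 in BEC and -4.06 in FRC. Of 9 lymphatic markers, 7 were higher and 1 lower in LEC than in BEC, and of 10 blood endothelial markers 9 were lower in LEC than in BEC. Of 13 fibroblastic reticular markers, 1 was higher and 10 were lower in LEC than in FRC, and 11 were lower in BEC than in FRC. Pdpn, which encodes gp38, stood at -1.19 in LEC, -3.81 in BEC and -0.83 in FRC. The genes of the 2 proteins selected against were measured on each array, with Ptprc, which encodes CD45, at -1.57 in LEC, 0.23 in BEC and -2.36 in FRC, and Cd24a, which encodes CD24, at 3.40 in LEC, 3.89 in BEC and 1.61 in FRC. In BEC they were 6.04-fold and 4.86-fold above FRC, and their part in the results was not tested. The Ptprc values rest on its brightest probe, since its other probes were not well above background on any array. The summed level of the 13 fibroblastic markers was 7.94 in LEC, 6.16 in BEC and 11.66 in FRC (log2), so RNA of fibroblastic genes was measured on both endothelial arrays, more on the LEC array than on the BEC array. In sorted bulk RNA, fewer cells of a type and less RNA per cell cannot be told apart.

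Several of the genes have more than 1 probe, and their sequences are shown because the probes of Ptgir and of Ptger3 gave different readings. Whether the piece of the transcript that a probe covers has a part in this was not tested. Each probe has 60 bases, and the first 30 are printed 5′ to 3′ as the files give them, the whole probe only for Ptgds, whose stated position is longer than the probe. Positions are those of the file headers, on mouse build mm9, and whether they are exonic or untranslated was not determined here.
Ptgs2 brightest probe: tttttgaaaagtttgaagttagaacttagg
Ptgs2 second probe: ctgaagaattgctttcttacttaaaaacaa
Ptgir brightest probe: ccaaatgacaacaacagataaaaccacaaa
Ptgir second probe: tgttggtgacctccatcttcttctgcaacg
Ptger3 brightest probe: ctaaatgttcagctagagctgttaaaagga
Ptger3 probe 3: aaagggagtcactatgaaaagaacatcagt
Ptger4 brightest probe: aagcacattggctgtcattctgatgtgact
Ptger4 second probe: tcactttctcagtatgtgttttgtatgtac
Ptgds probe, whole: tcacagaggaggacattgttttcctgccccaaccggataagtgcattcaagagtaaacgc
The 2 Ptgs2 probes lie 328 bases apart on the plus strand, at chr1:151954744-151954803 and chr1:151954416-151954475. The Ptgir probes lie 3.2 kb apart on the plus strand, the brightest at chr7:17496032-17496091 and the second, upstream of it, at chr7:17492798-17492857. For Ptger3, on the plus strand, the brightest probe lies at chr3:157307508-157307567 and the third 37.4 kb upstream of it at chr3:157270101-157270160. The Ptger4 probes lie on the minus strand, the brightest at chr15:5184419-5184478 and the second 27.7 kb downstream of it at chr15:5156675-5156734. The position of the Ptgds probe, chr2:25322842-25323373 on the minus strand, covers 532 bases.

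Promoters were available for 8 of the 10 genes, from RefSeq on build GRCm38.p6, as 250 bases before and 50 bases after the annotated start. Those printed are of Ptgs2, Ptges and Ptgir, highest in FRC by their brightest probes, and of Ptgds, highest in BEC. The second Ptgir probe was not highest in FRC. The promoters are printed 5′ to 3′ on the strand of the gene, with matches to 5 motifs in capitals.
Ptgs2 promoter: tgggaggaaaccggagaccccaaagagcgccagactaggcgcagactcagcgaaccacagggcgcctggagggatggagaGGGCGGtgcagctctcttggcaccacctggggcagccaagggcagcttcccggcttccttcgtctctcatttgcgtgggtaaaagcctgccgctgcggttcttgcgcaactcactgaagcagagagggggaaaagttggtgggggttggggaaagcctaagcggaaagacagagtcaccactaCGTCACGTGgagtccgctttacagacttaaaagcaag
Ptges promoter: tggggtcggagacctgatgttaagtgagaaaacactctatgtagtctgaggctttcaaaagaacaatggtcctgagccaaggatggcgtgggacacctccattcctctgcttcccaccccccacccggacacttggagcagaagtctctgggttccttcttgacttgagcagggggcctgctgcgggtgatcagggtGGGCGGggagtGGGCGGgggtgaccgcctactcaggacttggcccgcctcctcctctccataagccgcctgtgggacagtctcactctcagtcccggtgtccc
Ptgir promoter: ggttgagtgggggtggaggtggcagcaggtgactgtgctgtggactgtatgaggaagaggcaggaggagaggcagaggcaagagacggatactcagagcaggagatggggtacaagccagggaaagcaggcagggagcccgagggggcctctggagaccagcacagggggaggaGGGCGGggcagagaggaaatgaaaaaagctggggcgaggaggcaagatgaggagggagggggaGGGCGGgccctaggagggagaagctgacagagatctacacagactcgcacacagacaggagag
Ptgds promoter: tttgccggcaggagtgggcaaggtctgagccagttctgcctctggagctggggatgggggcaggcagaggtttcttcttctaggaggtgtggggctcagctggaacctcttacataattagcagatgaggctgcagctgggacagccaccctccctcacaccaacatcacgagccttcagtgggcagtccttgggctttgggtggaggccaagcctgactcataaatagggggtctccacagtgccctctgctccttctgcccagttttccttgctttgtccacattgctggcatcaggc
The windows are chr1:150099781-150100080 (plus strand), chr2:30903248-30903547 (minus strand), chr7:16906240-16906539 (plus strand) and chr2:25469700-25469999 (minus strand). Each motif was searched on both strands in all 32851 mouse promoter windows of this length. The TATA box, spelled TATAAA here, was found in 13.6% of them. The CCAAT box, spelled by its name, was found in 37.4%. The GC box, spelled GGGCGG here, was found in 35.7%. The half-site of the cAMP response element, spelled TGACG here, was found in 20.8%. The E-box, spelled CACGTG here, was found in 7.15%. Ptgs2 held 1 GC box, and after the annotated start a half-site match on the opposite strand that overlaps an E-box match. Ptges and Ptgir each held 2 GC boxes, and Ptgds held none of the 5 motifs in this window. Of the receptor genes whose promoters are not printed, Ptger3 held 3 GC boxes, Ptger4 held 4 and a CCAAT match, and Ptger2 held a CCAAT match. The promoter of Ptgs1, also not printed, held none of the 5 motifs, like that of Ptgds. These matches describe letters and not bound sites.

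The cyclooxygenase genes differed in where they were high. Ptgs1, which encodes the cyclooxygenase found in many resting tissues, stood at 1.90 in LEC, 3.30 in BEC and 3.17 in FRC. It was therefore similar in BEC and FRC and lowest in LEC, 2.42-fold below FRC and 2.65-fold below BEC, neither reaching 4-fold. Ptgs2, which encodes the inducible cyclooxygenase, stood at -0.30 in LEC, -2.91 in BEC and 1.54 in FRC. FRC had the highest level and BEC the lowest, with LEC between them. LEC minus FRC came to -1.83 (3.56-fold, under the 4-fold line). BEC minus FRC came to -4.44 (21.8-fold) and LEC minus BEC to 2.61 (6.11-fold).

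Ptgs2 is the only one of the 10 genes whose probe was printed in 10 spots on each array, which gives the error of the measurement within an array. The 10 spots ran from -0.36 to -0.21 in LEC (median -0.29), from -3.18 to -2.73 in BEC (median -2.93) and from 1.38 to 1.66 in FRC (median 1.54). Their SD was 0.05 in LEC, 0.14 in BEC and 0.08 in FRC. The spots of the 3 arrays did not overlap, and the nearest spots were 1.59 apart between LEC and FRC, 4.11 between BEC and FRC and 2.36 between LEC and BEC. The spots share 1 RNA and 1 hybridisation per population, so this spread leaves out that between mice, sorts and labellings. The second Ptgs2 probe stood at -0.86 in LEC, -3.72 in BEC and 0.81 in FRC, the same order, with differences of -1.66, -4.53 and 2.87.

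**Figure D1:**
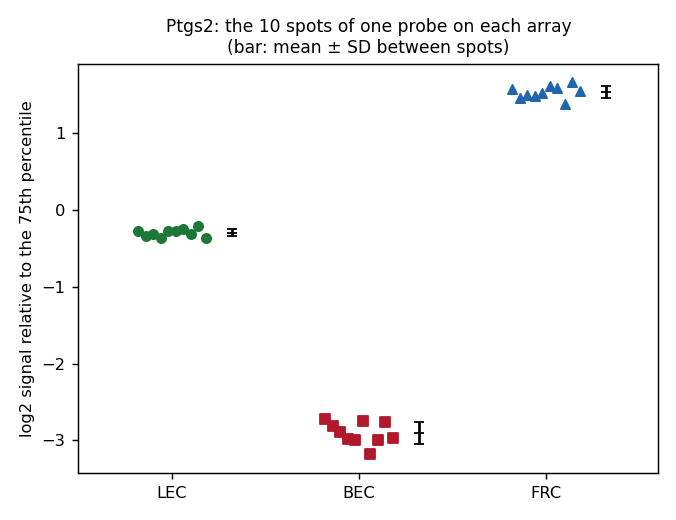
Level of Ptgs2 (log2 signal relative to the 75th percentile of the array, vertical axis) in each of the 10 spots of its brightest probe on the LEC, BEC and FRC arrays, with the mean and SD between spots beside them. The LEC spots lie between -0.36 and -0.21, the BEC spots between -3.18 and -2.73 and the FRC spots between 1.38 and 1.66.

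The terminal synthases were not all highest in the same population. Ptges, which encodes the microsomal prostaglandin E synthase that works with the inducible cyclooxygenase, stood at -1.15 in LEC, -3.02 in BEC and 2.22 in FRC. It was highest in FRC, 10.3-fold above LEC and 37.7-fold above BEC, and its LEC minus BEC difference was 1.87 (3.66-fold). Ptgis, which encodes prostacyclin synthase, stood at -2.17 in LEC, -2.56 in BEC and 3.19 in FRC. Both endothelial levels were low and near each other, 1.31-fold apart, and FRC was 41.0-fold above LEC and 53.7-fold above BEC. Counted from the lowest difference, Ptgis was the 46th of 16350 genes measured on both arrays for LEC minus FRC and the 87th of 16156 for BEC minus FRC.

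Ptgds, which encodes the lipocalin-type prostaglandin D synthase, had another pattern, with -1.03 in LEC, 2.59 in BEC and -1.57 in FRC. BEC alone stood high, 17.9-fold above FRC and 12.3-fold above LEC, while LEC and FRC were 1.46-fold apart. Its difference was the 235th highest of 16156 between BEC and FRC (BEC minus FRC) and the 112th lowest of 16443 between LEC and BEC (LEC minus BEC). Ptgds was the only one of the 10 genes at least 4-fold above FRC in an endothelial population.

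Ptgir encodes the prostacyclin receptor, which raises cAMP in the cell that carries it. Its brightest probe stood at -0.63 in LEC, -1.55 in BEC and 2.91 in FRC, 11.7-fold lower in LEC and 22.0-fold lower in BEC than in FRC. The second probe, 3.2 kb upstream, stood at -2.48 in LEC, -2.55 in BEC and -2.99 in FRC. It was well above background on each array and showed no FRC excess, with LEC minus FRC at 0.51, BEC minus FRC at 0.44 and LEC minus BEC at 0.07. With the mean of both probes, LEC minus FRC was -1.52, short of 4-fold, and BEC minus FRC was -2.01. The FRC excess of Ptgir thus rests on 1 probe.

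The receptors Ptger1 to Ptger4 carry the signal of prostaglandin E2. Ptger1, whose receptor EP1 acts through calcium, was not well above background in LEC or BEC and stood at -3.63 in FRC, at least 1.48-fold above LEC and at least 1.68-fold above BEC. The LEC bound was lost with normexp background correction and with division by the spike-in slopes, where it turned to 0.10 and 0.24 on the log2 scale. Ptger2, whose receptor EP2 raises cAMP, was low on each array, with -2.31 in LEC, -3.54 in BEC and -2.72 in FRC, and LEC was 2.35-fold above BEC. None of its differences reached 4-fold.

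Ptger3 encodes EP3, which mostly lowers cAMP and is made in several splice forms. Its brightest probe stood at -3.09 in LEC, -3.94 in BEC and -0.40 in FRC, 6.48-fold lower in LEC and 11.6-fold lower in BEC than in FRC. The second probe gave another order, with no signal well above background in LEC, -3.04 in BEC and -3.00 in FRC. By that probe BEC and FRC were 0.04 apart (log2), LEC was at least 2.29-fold below FRC and at least 2.23-fold below BEC. The third probe was not well above background on any array. With normexp the brightest probe no longer reached 4-fold, at -1.47 for LEC minus FRC and -1.91 for BEC minus FRC. With the mean of the probes, LEC minus FRC was -3.09, BEC minus FRC was -1.79 and LEC minus BEC turned from 0.84 to -1.30. That mean takes in the LEC value of the second probe, -6.48, which was not well above background, so the turn rests on a background value.

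Ptger4, whose receptor EP4 raises cAMP, stood at 0.12 in LEC, -2.13 in BEC and 0.19 in FRC by its brightest probe. LEC and FRC were level, 1.05-fold apart, and BEC was the low population, 4.98-fold below FRC and 4.75-fold below LEC. Its second probe was not well above background on any array. With normexp both differences lost 4-fold, at -1.68 (BEC minus FRC) and, between the endothelia, 1.66. The same correction took the Ptgs2 difference between LEC and BEC to 1.65.

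**Figure D2:**
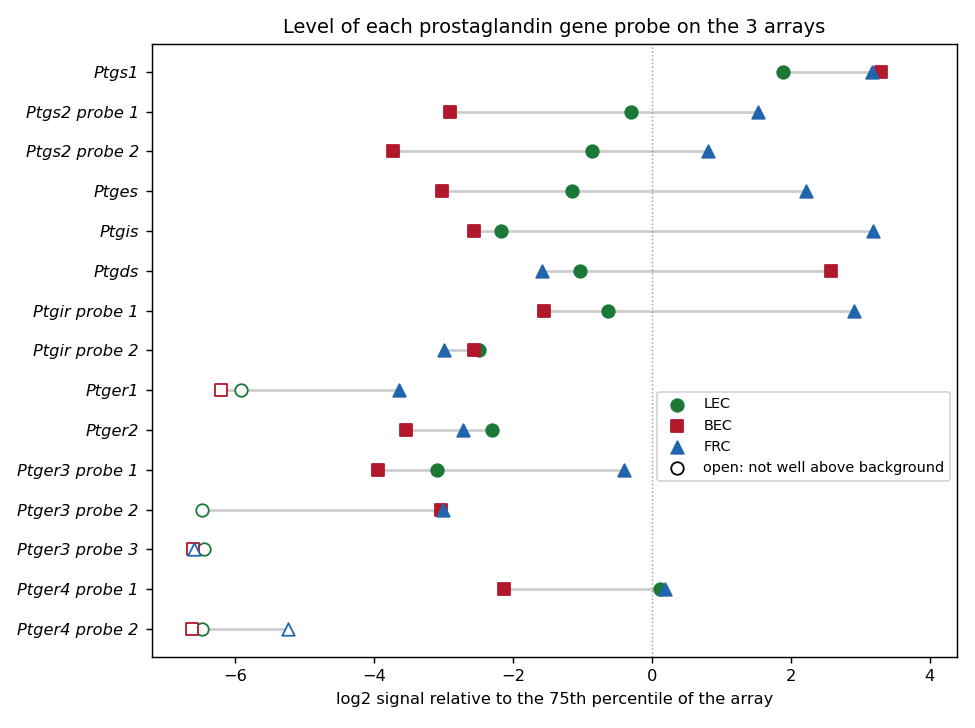
Level of each of the 15 probes (rows) on the LEC, BEC and FRC arrays, as log2 signal relative to the 75th percentile of the array (horizontal axis). Probe 1 of a gene is its brightest, and open symbols are not well above background. Probe 1 of Ptgir has FRC at 2.91 to the right of both endothelial arrays, while probe 2 has the 3 arrays between -2.99 and -2.48.

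Most of the 4-fold differences among the 10 genes were toward FRC. For LEC minus FRC, 4 of 10 were at least 4-fold lower in LEC (Ptges, Ptgis, Ptgir and Ptger3), where 5.9% of the 18624 genes compared were, and 0 were higher, where 4.85% of all genes were. The median of the 10 differences was -1.55, against 0.03 over all genes compared. For BEC minus FRC, 6 of 10 were lower in BEC (the same 4 with Ptgs2 and Ptger4), against 7.54% of 19024 genes, and 1 was higher (Ptgds), against 6.55%. The median was -2.93, against 0.09 over all genes. For LEC minus BEC, 9 genes could be compared, since Ptger1 was dim on both arrays. Of these, 2 were higher in LEC (Ptgs2 and Ptger4), against 3.37% of 18497 genes, and 1 was lower (Ptgds), against 3.38%, with a median of 0.92 against -0.07. The comparisons share arrays, so their counts are not independent of each other.

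**Figure D3:**
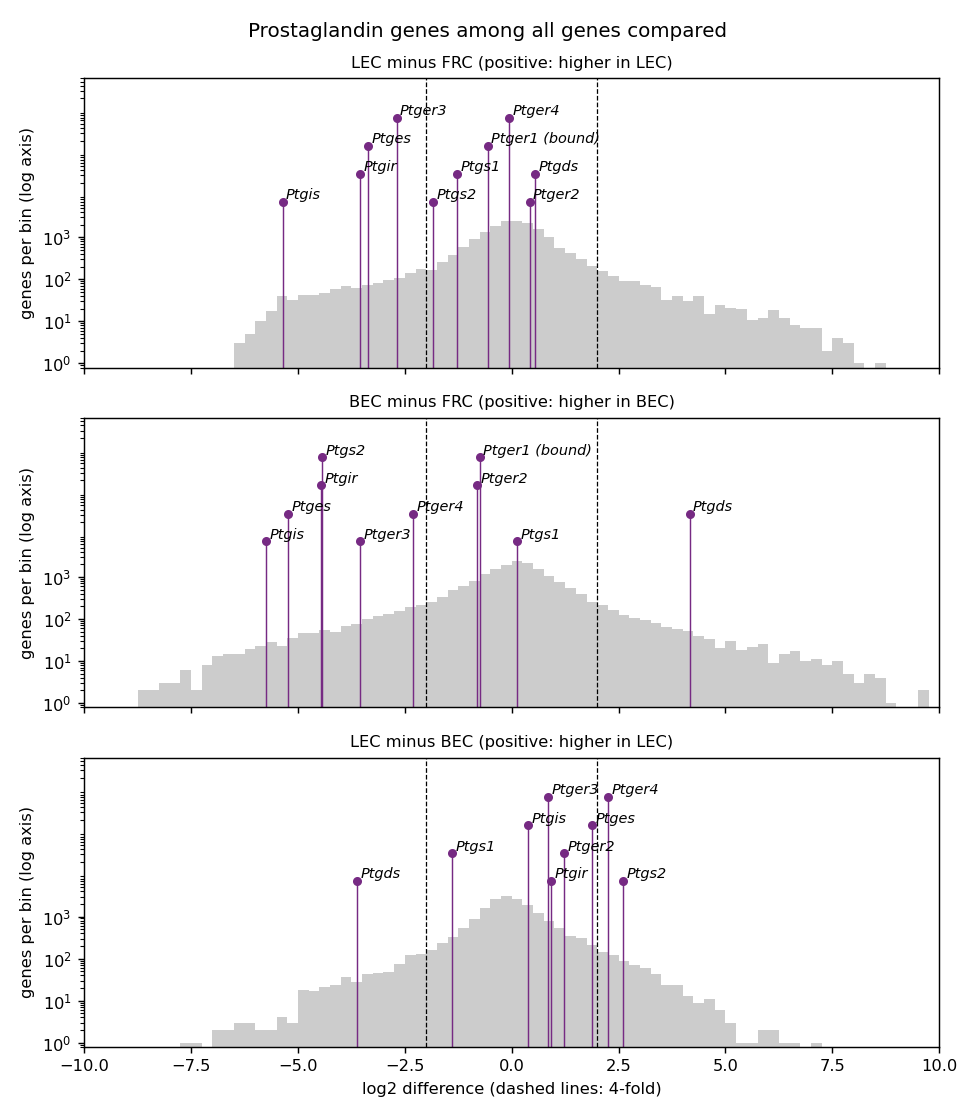
Log2 difference between 2 arrays (horizontal axis) for all genes compared (grey bars, genes per bin on a log axis) and for the prostaglandin genes (purple), with dashed lines at 4-fold, with 1 panel per pair of arrays. Ptgis lies at -5.36 and -5.75 in the comparisons with FRC, Ptgds at 4.16 for BEC minus FRC, and bounds are marked.

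Markers of other cells were read beside these differences, and some lists went both ways. Beside the LEC excess of Ptgs2 and Ptger4 over BEC, 4 of the 13 fibroblastic markers were higher in LEC than in BEC and 0 lower, with a median of 1.84. The 4 include Pdpn, which encodes gp38, the protein by which the sort separated LEC from BEC. Pdgfrb ran the other way, at 0.86 in LEC and 2.83 in BEC, short of 4-fold. Of 8 mesothelial markers compared, 2 were higher in LEC than in BEC and 0 lower (median 1.77). The summed level of the 9 listed was 4.60 in LEC, 2.70 in BEC and 3.70 in FRC. Most of the LEC sum came from Gpm6a, which stood at 4.37 in LEC, 1.94 in BEC and 1.20 in FRC. The median level of the 9 had another order, with -1.51 in LEC, -3.38 in BEC and 0.68 in FRC. Wt1, a defining gene of mesothelium, was not well above background in LEC or BEC and stood at 0.76 in FRC. Against FRC, 1 of 9 mesothelial markers was higher and 2 were lower in LEC, and 6 were lower in BEC. Of 10 pericyte and smooth muscle markers, 2 were higher and 3 lower in LEC than in FRC, 2 higher and 3 lower in BEC than in FRC, and 1 higher and 3 lower in LEC than in BEC, with summed levels of 6.27 in LEC, 7.13 in BEC and 6.84 in FRC. Beside the BEC excess of Ptgds, 3 of 5 adipocyte markers were higher and 1 lower in BEC than in FRC, with Lep well above background on no array, 2 were higher and 1 lower in LEC than in FRC, and 0 were higher and 2 lower in LEC than in BEC. The part of these cells in the results was not tested.

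For the list counts below, the background is the share of all genes compared. For LEC minus FRC, 4.85% were higher and 5.9% lower (median 0.03), and for BEC minus FRC 6.55% and 7.54% (median 0.09). For LEC minus BEC, 3.37% were higher and 3.38% lower (median -0.07). The remaining enzymes that act on PGH2 or on its products were also read. For 10 such genes compared with FRC, 0 were higher and 4 were lower in LEC (Akr1c18, Akr1b8, Cbr3 and Ptges3l, median -0.80), and 0 were higher and 3 were lower in BEC (Akr1c18, Akr1b8 and Cbr3, median -0.88). Of 9 compared between the endothelia, 0 reached 4-fold in either direction (median -0.31). Akr1c18, an aldo-keto reductase gene, was well above background only in FRC, at 0.31, at least 22.8-fold above LEC and at least 25.8-fold above BEC. Akr1b8 was 10.7-fold lower in LEC and 8.09-fold lower in BEC than in FRC, and Cbr3, a carbonyl reductase, 9.73-fold and 4.14-fold lower. Ptges2 and Ptges3, which encode the other prostaglandin E synthases, differed by at most 1.71-fold between any of the arrays by their brightest probes. A second Ptges3 probe stood at 1.12 in LEC, 0.25 in BEC and 1.86 in FRC. Hpgds, which encodes the prostaglandin D synthase of blood cells, was well above background on no array, while Ptgds was measured on all 3.

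Receptor genes for the other prostanoids were also read. Of 4 compared with FRC, 0 reached 4-fold in LEC (median -0.43) and 1 was lower in BEC (median -0.65), and 0 of 3 reached it between LEC and BEC (median 0.26). Tbxa2r, the thromboxane receptor gene, stood at 2.13 in LEC, 1.99 in BEC and 0.20 in FRC. Its endothelial levels were 3.81-fold (LEC) and 3.46-fold (BEC) above FRC, short of 4-fold. Ptgfr, the receptor gene for prostaglandin F2 alpha, was well above background only in FRC, at -2.68, at least 2.86-fold above LEC and at least 3.24-fold above BEC. Ptgfrn, whose product binds that receptor, stood at -0.05 in LEC, -0.95 in BEC and 1.79 in FRC, 6.72-fold lower in BEC than in FRC. Ptgdr2, a prostaglandin D2 receptor gene, stood at -0.88 in LEC, -1.14 in BEC and -1.53 in FRC by its brightest probe. Its second probe was not well above background on any array, so these levels rest on 1 probe. Ptgdr, the other receptor gene for prostaglandin D2, was well above background on no array.

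Prostaglandins are cleared by uptake into cells and oxidation. Of 9 export, uptake and breakdown genes compared with FRC, 0 were higher and 2 lower in LEC (median 0.19), and 1 was higher and 2 lower in BEC (median -0.20). Between LEC and BEC, 1 was higher and 1 lower in LEC (median 0.31). Hpgd, which encodes the dehydrogenase that inactivates prostaglandins, stood at -1.53 in LEC, -3.80 in BEC and 2.20 in FRC, the same order as Ptgs2 and Ptges. It was 13.2-fold lower in LEC and 63.7-fold lower in BEC than in FRC, and 4.82-fold higher in LEC than in BEC. Its second probe had the same order, at -1.98 in LEC and 1.60 in FRC and not well above background in BEC. Ptgr1, a reductase of the next step, stood at -0.15 in LEC, -1.14 in BEC and 2.91 in FRC, 8.30-fold lower in LEC and 16.6-fold lower in BEC than in FRC.

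The transporters ran otherwise. Abcc4, an exporter of prostaglandins, stood at 0.08 in LEC, 2.37 in BEC and -0.57 in FRC. BEC was 7.67-fold above FRC, and LEC was 4.90-fold below BEC. Slco2a1, the prostaglandin transporter gene, stood at 2.75 in LEC, 4.05 in BEC and 2.26 in FRC, and Slco3a1 at 4.57 in LEC, 2.59 in BEC and 3.30 in FRC, none of their differences reaching 4-fold. The other 4 genes also stayed under 4-fold, with Ptgr2 at 0.03 in LEC, -0.16 in BEC and 0.03 in FRC and Zadh2 at 1.47 in LEC, 1.07 in BEC and 2.63 in FRC. Slc22a6 stood at -2.72 in LEC, -3.04 in BEC and -2.91 in FRC, and Slc22a8 at -0.88 in LEC, -0.91 in BEC and -1.20 in FRC. These are their brightest probes, and no other probe of either gene was well above background on any array.

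Enzymes that release arachidonic acid from lipids come before the cyclooxygenases. The list holds phospholipase A2 genes with Faah and Mgll, and 1 of its genes is counted under both its older name, Pla2g16, and its present one, Plaat3. Of 17 compared with FRC, 1 was higher and 2 lower in LEC (median 0.04), and 1 was higher and 4 lower in BEC (median -0.74). Of 16 compared between the endothelia, 2 were higher and 0 lower in LEC (median 0.40). Pla2g4a, which encodes the cytosolic phospholipase A2 that supplies the cyclooxygenases, stood at -2.30 in LEC, -3.02 in BEC and 2.93 in FRC, 37.4-fold lower in LEC and 61.8-fold lower in BEC than in FRC. Its second probe stood at -3.67 in LEC and 1.81 in FRC and was not well above background in BEC. Pla2g15, a lysosomal enzyme, was 5.75-fold lower in LEC and 7.67-fold lower in BEC than in FRC. The secreted enzyme genes Pla2g5 and Pla2g1b were 21.7-fold and 7.95-fold lower in BEC than in FRC, and 12.4-fold and 8.59-fold higher in LEC than in BEC. Mgll, which encodes a lipase that frees arachidonic acid from an endocannabinoid, was higher in the endothelia than in FRC, by 5.12-fold in LEC and 15.0-fold in BEC.

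**Figure D4:**
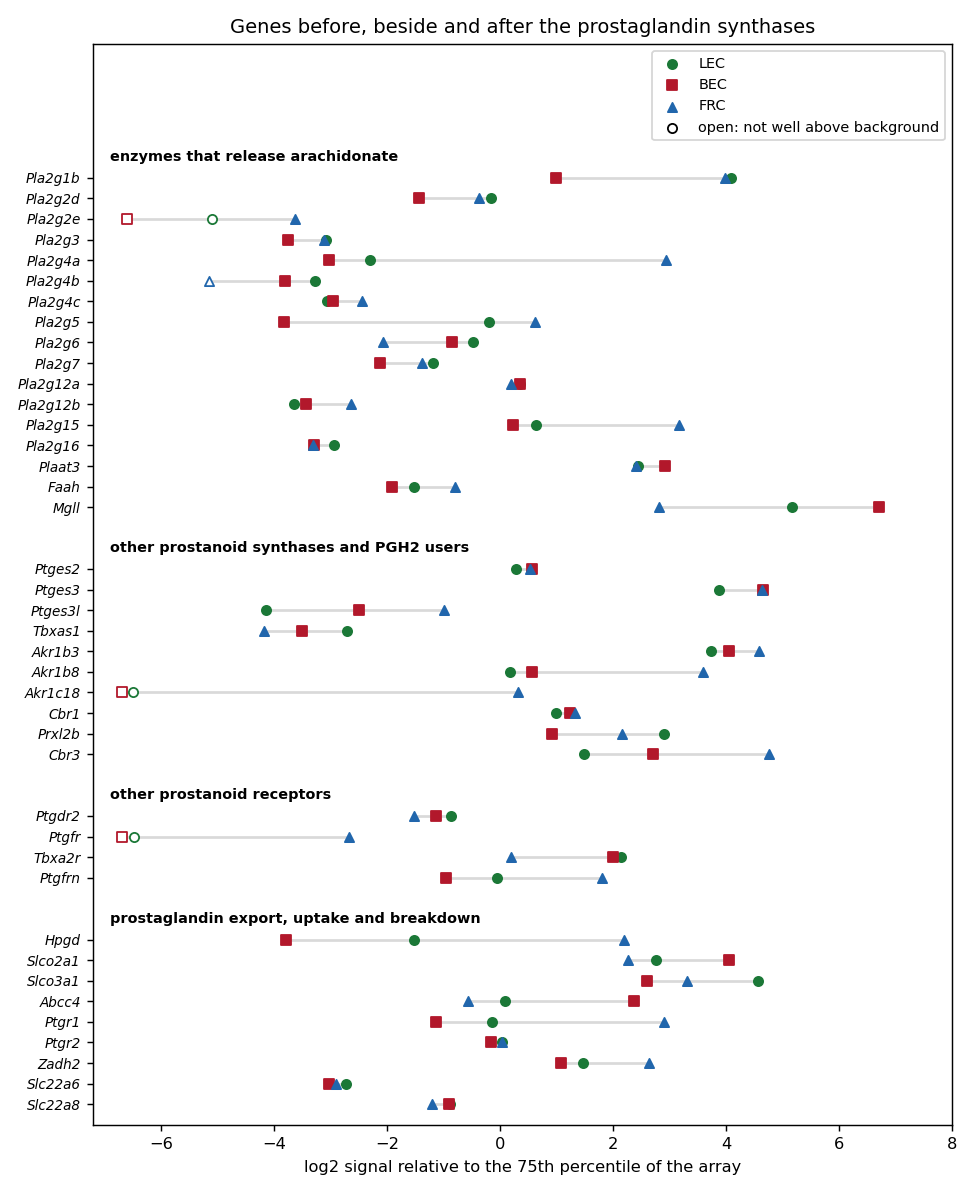
Level of each gene compared in 4 pathway lists (rows, grouped by list) on the LEC, BEC and FRC arrays, as log2 signal relative to the 75th percentile of the array (horizontal axis), with open symbols for probes not well above background. Pla2g4a, Hpgd and Ptgr1 have FRC at 2.93, 2.20 and 2.91, to the right of both endothelial arrays, and Mgll and Abcc4 have BEC furthest right, at 6.71 and 2.37.

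To place the patterns among all genes, the genes whose 3 levels ran most nearly parallel were looked up among 12610 well above background on all arrays, by the Euclidean distance of levels centred on each gene's mean. With 3 arrays many genes run nearly parallel, so this is a description only. The nearest to Ptgs2 were Esr1 (distance 0.10) and Col16a1 (0.28), those to Ptges were Abi3bp (0.11) and Bicc1 (0.13), and those to Ptgis were Serpinf1 (0.13) and Pid1 (0.14). The nearest to the brightest Ptgir probe were Hoxc6 (0.03) and Ecrg4 (0.13), and those to Ptger3 were Fmod (0.07) and Hk2 (0.10). Ptgds had Ssu2 (0.07) and Car2 (0.19), and Ptger4 had Stau2 (0.03) and Fam168a (0.05).

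**Figure D5:**
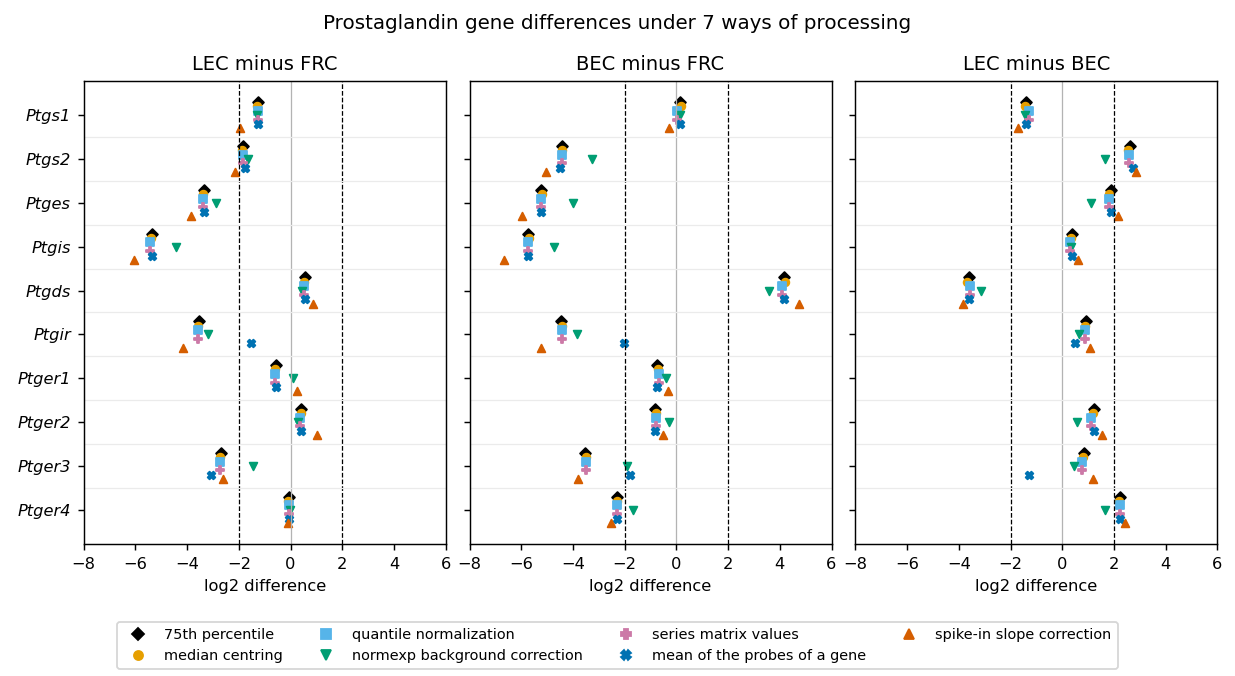
Log2 difference (horizontal axes) of each of the 10 genes (rows), a panel per pair of arrays, under 7 ways of processing (symbols), with dashed lines at 4-fold. Ptgis stays between -6.05 and -4.42 for LEC minus FRC and between -6.67 and -4.74 for BEC minus FRC, and Ptgds between 3.57 and 4.73 for BEC minus FRC. For some pairs of arrays Ptgs2, Ptges, Ptgir, Ptger3 and Ptger4 cross the line.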

How the data were processed

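Total RNA of 1 sort population per array (LEC, BEC, FRC) was hybridised to single-colour Agilent mouse arrays. The authors deposited scanner files of intensity values. The submitters' processing notes name Agilent Feature Extraction 10.7.3.1. Background was already subtracted from the processed intensity per the file headers, which record no scaling between arrays. The labels' protocols give 1 round of RNA amplification. The authors' series matrix holds intensity values whose columns are quantile-normalized, and was used as an alternative.

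From 43379 non-control spots, outlier spots were dropped, which removed 18 probes. Spots of a probe were averaged as log2 processed signal, and the 75th percentile of each array over its 41156 probes was subtracted. Gene names are those of the files, updated by accession for 26681 probes. A gene entered a comparison if its brightest probe, or another probe for it, gave signal well above background on either array of the pair. Against a dim array the bound uses the dim value or, if higher, the lowest level well above background there (-4.20 in LEC, -4.38 in BEC, -4.34 in FRC, log2). Computations used Python 3.11.15 with pandas 2.3.3 and numpy 2.4.6, and normexp used limma 3.58.1 in R 4.3.3 with an offset of 50. The comparison code was checked on simulated data. Alternatives were median centring, quantile normalization, normexp, the series matrix, no filter on dim probes, thresholds of 2-fold and 8-fold, and the mean of a gene's probes. Division by spike-in slope was added after seeing the data.

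The genes, the 7 pathway lists and the 13 marker lists were chosen with earlier results of these data known. Named genes are the 10 genes, the called pathway genes with the largest differences (up to 3 per list, comparison and direction), every gene of the receptor and the export, uptake and breakdown lists, and the 2 nearest genes to each called member well above background on all arrays. Others named, such as Ptges2, Ptges3, Hpgds and Ptges3l, were chosen after their values were seen. With 1 array per population, the number of arrays limits the precision. For the member probes the error the scanner software gives was 0.14 to 0.27 (log2) where well above background, and 0.05 to 0.06 was the median SD between spots of probes printed 10 times. The sequence and position of the second Ptger3 probe are not reported here.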

Additional observations from a re-analysis of the deposited data

How the results depend on the processing

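No paired analysis was possible because each population had 1 array. Among the 29 differences of the 10 genes, 29 kept their side of the 4-fold line and their direction if called under median centring, quantile normalization and the series matrix, 27 with no filter on dim probes, 27 with the mean of the probes, 27 with spike-in slopes and 24 with normexp. With no filter Ptger1 reached -2.27 (LEC minus FRC) and -2.57 (BEC minus FRC). With spike-in slopes Ptgs2 reached -2.17 (LEC minus FRC) and Ptges 2.14 (LEC minus BEC), and Ptgs1 turned to -0.27 for BEC minus FRC. Of the 10 genes, those called for LEC minus FRC numbered 3 with normexp, with the mean of the probes and at 8-fold, against 4. They numbered 5 with no filter and with spike-in slopes, and 6 at 2-fold. For BEC minus FRC they numbered 5 with normexp and 6 with the mean of the probes and at 8-fold, against 7. With no filter they numbered 8. For LEC minus BEC they numbered 1 with normexp and at 8-fold, 4 with spike-in slopes and 6 at 2-fold, against 3. Over all genes, the calls for LEC minus FRC numbered 1194 with normexp, 4896 at 2-fold and 1032 at 8-fold, against 2003. For BEC minus FRC they numbered 1613 with normexp, 6327 at 2-fold and 1384 at 8-fold, against 2681. For LEC minus BEC they numbered 617 with normexp, 3914 at 2-fold, 456 at 8-fold and 1916 with no filter, against 1248. Normexp moved the median of all genes from 0.02 to 0.13 for LEC minus FRC and from -0.08 to 0.03 for LEC minus BEC. The cause of these changes was not tested beyond the construction of each threshold. Dim probes limit what can be said of Ptger1 and the other probes of Ptger3 and Ptger4.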

Other observations

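The list counts of this section have the same background over all genes compared. It was 4.85% higher and 5.9% lower for LEC minus FRC, and 6.55% and 7.54% for BEC minus FRC. For LEC minus BEC it was 3.37% and 3.38%. Arachidonic acid also feeds the lipoxygenases and leukotrienes. Of 11 genes of that branch, 1 was higher and 1 lower in LEC than in FRC (median 0.27), 2 were higher and 0 lower in BEC than in FRC (median 0.11), and 1 was higher and 3 lower in LEC than in BEC (median -0.12). Alox12, the platelet-type lipoxygenase gene, stood at -2.58 in LEC, 2.50 in BEC and -3.21 in FRC, 52.2-fold higher in BEC than in FRC. Its order was that of Ptgds, with BEC alone high, and its second probe was well above background only in BEC. Ltc4s, which encodes leukotriene C4 synthase, stood at 3.85 in LEC, 0.43 in BEC and 1.03 in FRC, 7.08-fold above FRC and 10.7-fold above BEC in LEC. Ggt5, which encodes an enzyme that converts leukotriene C4, stood at -0.67 in LEC, 1.94 in BEC and 3.29 in FRC, 15.5-fold lower in LEC than in FRC and 6.10-fold lower in LEC than in BEC. Cysltr1, a receptor gene for its products, stood in BEC 7.09-fold above FRC, and in LEC 13.8-fold below BEC.

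The prostacyclin receptor and EP2 to EP4 act through cAMP. Of 27 G protein, cyclase and cAMP effector genes, 1 was higher and 1 lower in LEC than in FRC (median 0.22). Of 28, 2 were higher and 3 lower in BEC than in FRC (median -0.31), and of 26, 0 were higher and 1 lower in LEC than in BEC (median 0.43). Adcy4, an adenylyl cyclase gene, stood at 4.30 in LEC, 5.40 in BEC and 0.94 in FRC, 10.3-fold and 22.0-fold above FRC, while Adcy3 and Adcy7 were 7.22-fold and 7.55-fold lower in BEC than in FRC. Rapgef3, which encodes the cAMP sensor EPAC1, stood in BEC 15.7-fold above FRC, and in LEC 5.61-fold below BEC. Pde3a, a phosphodiesterase gene, was 21.1-fold lower in LEC and 19.7-fold lower in BEC than in FRC.

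Of 22 genes that induce or restrain Ptgs2, 0 were higher and 2 lower in LEC than in FRC (median -0.30), and 0 reached 4-fold for BEC minus FRC (median 0.06) or for LEC minus BEC (median -0.48). The 2 were Il1r1, an interleukin-1 receptor gene (5.35-fold), and Anxa1, which encodes an inhibitor of phospholipase A2 (8.50-fold).

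Among blood cell markers against FRC, 1 of 6 mast cell markers was higher and 1 lower in LEC, and 1 of 5 higher and 1 lower in BEC, with Mcpt4 and Tpsab1 well above background on no array. Platelet markers were higher for 2 of 6 in LEC and 1 of 5 in BEC, and T and B cell markers for 1 of 8 in LEC and 2 of 8 in BEC, with none of either list lower. Macrophage and dendritic cell markers reached 4-fold for 0 of 8 in LEC and 0 of 8 in BEC, with Itgam and Cd163 well above background on no array. Glial markers were lower for 1 of 5 in LEC and 1 of 5 in BEC, and 0 were higher. Of the 4 genes of the sort gates, 1 was higher in LEC, and 3 were higher and 1 lower in BEC. Between LEC and BEC, 1 of 5 mast cell markers was lower in LEC, 1 of 5 platelet markers was higher and 1 lower, 2 of 8 T and B cell markers were lower, 1 of 4 gate genes was higher, and 0 of 8 macrophage and 0 of 4 glial markers reached 4-fold. In LEC, 8 of 9 lymphatic markers stood at least 4-fold above FRC and 1 below, and 8 of 10 blood endothelial markers above and 2 below. In BEC, 7 of 9 lymphatic and 9 of 10 blood endothelial markers stood above FRC and 0 below. Their part in the prostaglandin results was not tested.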
